A study of Mus musculus with 12 samples.

Results

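The genes described here are the 4 Egr transcription factors, *Egr1*, *Egr2*, *Egr3* and *Egr4*, and the genes of their 2 corepressors, *Nab1* and *Nab2*. They were taken by gene symbol from a table of 23183 symbols, and all 6 were listed and passed the filter on low values in every comparison. RNA of 2 brain regions, cortex and hippocampus, was sequenced in male C57BL/6 mice that had received a single dose of 10 Gy of X-rays to the whole brain (IR) or sham irradiation at 0 Gy (Con). The mice arrived at 7 weeks of age, had 1 week of acclimatization before the procedure, and were examined 3 months after it. Each region had 3 Con and 3 IR libraries, 12 in all, from mice with no engineered allele. The study describes 1 cohort of mice and tested its behavior in this phase, and no source used here names other mice for the sequencing. It is not stated whether a cortex and a hippocampus library with the same number came from 1 mouse.

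Egr proteins are zinc finger transcription factors that bind GC-rich sites in DNA. In neurons their genes belong to the immediate-early genes, which are transcribed within minutes of synaptic activity or growth factor signals, when the RAS-RAF-MEK-ERK kinase cascade acts on SRF with its ELK partners and on CREB. Nab1 and Nab2 bind an inhibitory domain of Egr1, Egr2 and Egr3 and repress their target genes, in part through the NuRD chromatin remodeling complex, and *Nab2* is itself known as a gene that Egr proteins induce, which closes a negative feedback loop.

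In the cortex, all 3 IR libraries stood above all 3 Con libraries for 6 of the 6 genes, a pattern that 11.2% of the 14065 genes tested there showed. The ratio of the IR mean to the Con mean was 2.11 for *Egr1*, 3.01 for *Egr2*, 1.99 for *Egr3*, 1.62 for *Egr4*, 1.43 for *Nab2* and 1.14 for *Nab1*. *Egr3* rose in the cortex (adjusted p = 0.000185 from limma), and the cortex differences of the other 5 genes did not pass the adjusted threshold. In the hippocampus, the same 6 ratios lay between 0.935 for *Nab1* and 2.00 for *Egr2*, and no gene of the 6 passed. The difference between the regions passed for *Egr3* (adjusted p = 0.0292), with a ratio of 1.03 in the hippocampus, but this call was lost in 10 of 19 alternative settings.

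The values are FPKM, fragments counted per length of transcript and per size of the library, a scale that allows genes to be compared with each other. They summed to between 359773 and 393447 per library, with 17093 to 17548 symbols above 0, and the depth in reads is unknown. The labelled regions matched their markers, since 6 cortex genes summed to 196 to 252 FPKM in the cortex libraries and to 48.2 to 52.9 in the hippocampus libraries. Of the markers of other cell types below, 0 passed the adjusted threshold of limma in the cortex and 1 microglial gene did in the hippocampus, and their summed levels are given for comparison. Summed microglial markers (6 genes, each lower in IR in both regions) were 85.2 to 95.3 FPKM in cortex Con and 65.2 to 88.7 in cortex IR, against 85.1 to 105 and 66.1 to 76.3 in the hippocampus. Summed endothelial markers (4 genes, 3 of them higher in IR in each region) were 39.4 to 47.9 FPKM in cortex Con and 50.3 to 59.7 in cortex IR, against 36.2 to 42.4 and 46.3 to 48.0 in the hippocampus. Oligodendrocyte markers (5 genes, all higher in cortex IR) were 1007 to 1246 FPKM in cortex Con and 1249 to 1509 in cortex IR, and they overlapped in the hippocampus. Neuronal markers (9 genes) overlapped in the cortex, at 3129 to 3615 FPKM in Con and 3275 to 3574 in IR. Choroid plexus markers (4 genes) ranged from 3.43 to 29.9 FPKM in cortex Con and from 15.5 to 436 in cortex IR, with an IR median of 16.9. In the hippocampus they ranged from 22.5 to 1052 FPKM in Con and from 23.7 to 1637 in IR. The part of these cell types in the Egr and Nab differences was not tested. In bulk tissue, more cells of a type and more RNA per cell cannot be told apart.

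*Egr3*, which in neurons is induced more slowly and for longer than *Egr1*, was the most even of the Egr genes among replicates. The gene lies at chr14:70077203-70082614 on the plus strand of GRCm38. In the cortex it was listed at 34.2, 35.7 and 37.8 FPKM in the 3 Con libraries and at 75.1, 66.8 and 72.9 FPKM in the 3 IR libraries. The cortex groups were far apart, and the gap between them was wider than the range within either. In the hippocampus it was listed at 32.1, 39.0 and 31.4 FPKM in Con and at 33.2, 34.7 and 37.6 FPKM in IR. These 6 values overlapped each other and the cortex Con values, so that the cortex IR libraries stood alone. The group means were 35.9 ± 1.81, 71.6 ± 4.27, 34.2 ± 4.24 and 35.2 ± 2.21 FPKM (SD, n = 3) for cortex Con, cortex IR, hippocampus Con and hippocampus IR. In order of level, cortex IR came first, and cortex Con, hippocampus IR and hippocampus Con followed with overlapping ranges.

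*Egr1*, the founding member that is widely used as a marker of recently active neurons, had the highest level of the 6 genes in all 6 cortex libraries. It is a gene of 2 exons at chr18:34859823-34864984 on the plus strand. Its values in the cortex were 49.9, 93.3 and 96.9 FPKM in Con and 152, 161 and 193 FPKM in IR. Con 1 stood far below the other Con libraries, and the groups did not overlap. In the hippocampus the values were 25.3, 37.2 and 35.3 FPKM in Con and 27.6, 32.4 and 48.1 FPKM in IR. The hippocampus groups overlapped, with IR 3 above all Con libraries. The means fell in the order cortex IR (169 ± 21.3 FPKM), cortex Con (80.0 ± 26.1), hippocampus IR (36.0 ± 10.7) and hippocampus Con (32.6 ± 6.40; SD, n = 3 each), and only the last pair of neighbors had overlapping ranges.

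*Egr4*, a member found mainly in the nervous system and the testis, had the third level among the Egr genes. It lies at chr6:85511121-85513589 on the minus strand and has 2 exons. In the cortex it was listed at 10.95, 20.9 and 19.2 FPKM in Con and at 25.1, 26.7 and 30.9 FPKM in IR, without overlap. In the hippocampus it was listed at 10.9, 14.6 and 14.7 FPKM in Con and at 10.02, 12.6 and 17.2 FPKM in IR. The hippocampus IR libraries thus held both the lowest and the highest of the 6 values. *Egr2*, known for hindbrain patterning and for myelination by Schwann cells, lies at chr10:67535475-67542188 on the plus strand and was the lowest of the 6 genes in each library except cortex IR 3. Its cortex values were 0.281, 2.78 and 2.68 FPKM in Con and 4.41, 4.53 and 8.35 FPKM in IR. Con 1 was close to 0, which widens the Con mean of 1.92 ± 1.42 FPKM (SD, n = 3) against 5.76 ± 2.24 FPKM in IR. In the hippocampus *Egr2* was listed at 0.206, 0.709 and 0.425 FPKM in Con and at 0.497, 0.607 and 1.58 FPKM in IR. The 2 hippocampus groups overlapped, and the gene passed the filter of 0.5 FPKM in 3 libraries of the 6 there, of which Con 2 is the only Con library. Schwann cell markers (5 genes) summed to at most 3.80 FPKM in a library, and *Foxd3* among them was listed at 0 throughout.

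**Figure D1:**
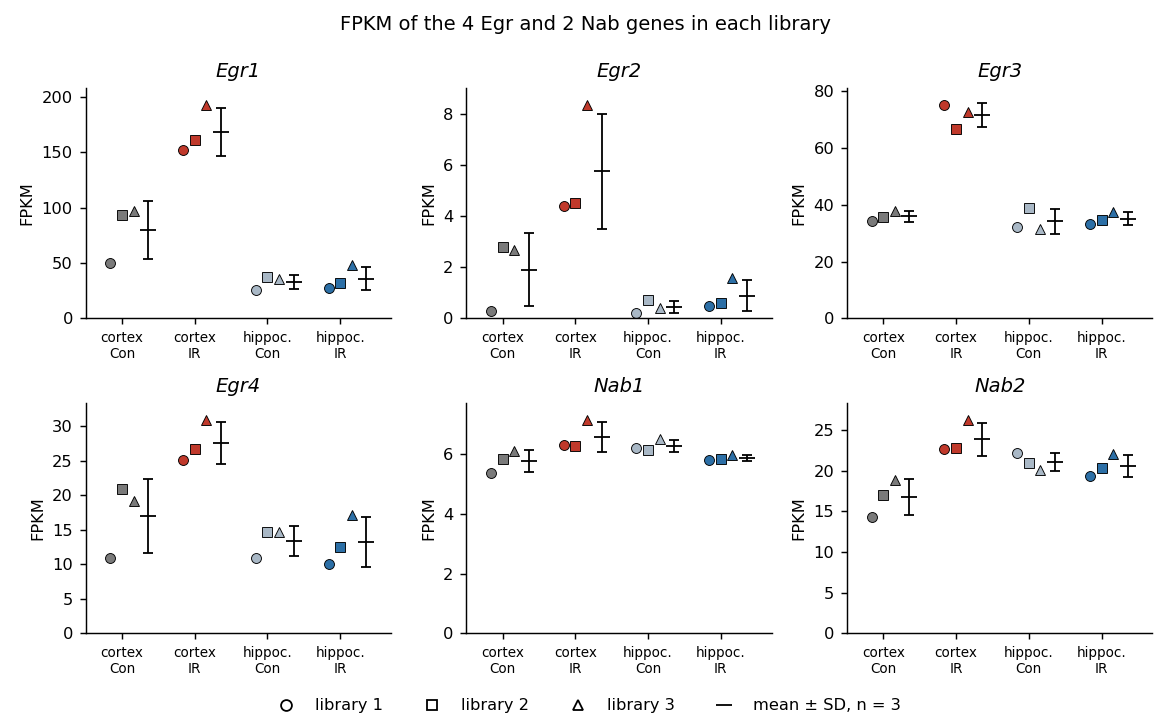
FPKM of each Egr and Nab gene (vertical axes, linear from 0) in the 3 libraries of each of 4 groups, with the group mean and SD beside the points. In the cortex the IR points lie above the Con points in each panel, by a wide margin for *Egr3*, and cortex Con library 1 is the lowest of its group in all 6 panels.

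*Nab2*, the corepressor that follows Egr activity, lies at chr10:127660918-127668568 on the minus strand. In the cortex it was listed at 14.4, 17.1 and 18.8 FPKM in Con and at 22.7, 22.7 and 26.2 FPKM in IR. The groups did not overlap, and the IR values also lay above the hippocampus values. In the hippocampus it was listed at 22.2, 20.9 and 20.04 FPKM in Con and at 19.4, 20.3 and 22.0 FPKM in IR, with overlap. Of the neighboring pairs in the order of its means, cortex IR (23.9 ± 2.02 FPKM), hippocampus Con (21.1 ± 1.09), hippocampus IR (20.6 ± 1.35) and cortex Con (16.7 ± 2.25; SD, n = 3 each), only the middle pair overlapped. Its annotated span overlaps *Stat6* by 40 bases, *Nemp1* (listed as *Tmem194*) by 1668 bases and the antisense gene *Gm16229* by 1646 bases on the opposite strand, and whether the authors' quantification used the strand is not given in the sources used here. On the log2 scale the cortex differences were 0.14 for *Stat6* (adjusted p = 0.465 from limma) and -0.14 for *Tmem194* (adjusted p = 0.637). *Gm16229* was not listed. The part of these genes in the *Nab2* values was not tested.

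*Nab1*, the relative that is expressed more constantly in many tissues, lies at chr1:52457294-52500679 on the minus strand and varied least. Its cortex values were 5.38, 5.84 and 6.12 FPKM in Con and 6.32, 6.26 and 7.14 FPKM in IR. The 2 cortex groups did not overlap but nearly touched. In the hippocampus the values were 6.21, 6.13 and 6.52 FPKM in Con and 5.80, 5.85 and 5.99 FPKM in IR. Here the IR values all lay below the Con values, which makes *Nab1* the 1 gene of the 6 without overlap in the hippocampus, in the direction opposite to the cortex. All IR below all Con was seen there for 9.36% of all genes.

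Promoter sequences are shown for 4 of the 6 genes, because these genes share the direction of their cortex difference and include both sides of the feedback loop. They came from a table of RefSeq starts on GRCm38.p6 that lacks *Egr1* and *Egr3*. That table is not all of RefSeq, since the study lists a RefSeq record for *Egr1*. Each line gives the 250 bases before an annotated start, 5′ to 3′ on the strand of the gene. Capitals mark 3 kinds of letters that were searched on both strands and that do not overlap here, the Egr site (GCGNGGGCG), the CRE core of CREB family proteins (TGACG) and the CArG box of SRF. The windows are chr10:67537619-67537868 on the plus strand for *Egr2*, chr6:85513590-85513839 on the minus strand for *Egr4*, chr1:52500449-52500698 on the minus strand for *Nab1* and chr10:127666704-127666953 on the minus strand for *Nab2*. The table gives several starts for *Egr2*, and the one shown matches the start of a coding transcript in GENCODE M21. The starts used for *Egr2*, *Nab1* and *Nab2* lie inside the gene spans given above and not at their outermost ends.
Egr2: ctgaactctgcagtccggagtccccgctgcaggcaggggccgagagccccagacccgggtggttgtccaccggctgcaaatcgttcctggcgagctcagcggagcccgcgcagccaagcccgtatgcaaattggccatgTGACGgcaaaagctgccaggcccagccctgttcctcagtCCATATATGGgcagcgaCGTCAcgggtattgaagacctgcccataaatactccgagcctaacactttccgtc
Egr4: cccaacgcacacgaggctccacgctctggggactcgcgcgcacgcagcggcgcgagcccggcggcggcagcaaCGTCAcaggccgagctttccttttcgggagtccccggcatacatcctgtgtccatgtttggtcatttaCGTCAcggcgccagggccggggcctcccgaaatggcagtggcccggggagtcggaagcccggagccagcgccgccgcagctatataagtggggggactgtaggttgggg
Nab1: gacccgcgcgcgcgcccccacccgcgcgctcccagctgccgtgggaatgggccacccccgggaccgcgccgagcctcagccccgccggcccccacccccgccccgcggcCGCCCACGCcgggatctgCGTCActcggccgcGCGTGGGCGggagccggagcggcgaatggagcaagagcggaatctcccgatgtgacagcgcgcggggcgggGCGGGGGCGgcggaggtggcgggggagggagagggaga
Nab2: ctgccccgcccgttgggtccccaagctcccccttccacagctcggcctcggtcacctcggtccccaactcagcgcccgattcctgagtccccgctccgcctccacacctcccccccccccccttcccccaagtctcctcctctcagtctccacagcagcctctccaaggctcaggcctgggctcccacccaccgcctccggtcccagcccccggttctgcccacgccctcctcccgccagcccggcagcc

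Counted back from the base before the start, the *Egr2* window holds a CArG box at bases 72 to 63 and CRE cores at bases 111 to 107 and 55 to 51. Windows of other *Egr2* starts differ. The one at chr10:67535249-67535498 holds none of these letters, and the one at chr10:67537316-67537565 holds only a CArG box with other letters. The *Egr4* window holds CRE cores at bases 177 to 173 and 109 to 105. The *Nab1* window holds 3 Egr sites, at bases 141 to 133, 109 to 101 and 38 to 30, and a CRE core at bases 123 to 119. None of these letters occur in the *Nab2* window, which does not cover the region before the outermost end of that gene. Over all 32851 promoter windows of the same length in the table, which gives some genes several windows, 4.7% held the Egr site, 17.8% the CRE core and 1.47% the CArG box. The gene with 3 Egr sites in its window, *Nab1*, was the gene with the smallest cortex difference of the 6. These matches are descriptions of the sequence and say nothing about binding in these samples.

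To compare IR with Con in the cortex, log2(FPKM + 1) was modelled by group with limma in each gene that reached 0.5 FPKM in 3 or more of 6 libraries, and p values were adjusted over all of them. The differences on this scale, which understates changes of low genes such as *Egr2*, were 1.12 (SE 0.28) for *Egr1*, 1.32 (SE 0.51) for *Egr2*, 0.97 (SE 0.06) for *Egr3* and 0.71 (SE 0.24) for *Egr4*. They were 0.49 (SE 0.10) for *Nab2* and 0.16 (SE 0.08) for *Nab1*. With an adjusted p under 0.05, 1 of the 6 genes was called, *Egr3*, where 79 of 14065 genes (0.562%) were called higher in IR. *Egr3* ranked 2 among all genes by p, and *Nab2* followed at rank 116 with an adjusted p of 0.0582 from limma. The adjusted p values from limma were 0.210 for *Egr1*, 0.346 for *Egr2*, 0.278 for *Egr4* and 0.402 for *Nab1*. By the rule that the study states, a fold of at least 1.5 with an unadjusted p under 0.05, the 4 Egr genes and neither Nab gene were called, against 55 genes or 0.391% of all called higher in IR. The fold here came from log2(FPKM + 1). With the ratio of group means the rule called more genes in all, as given in the closing section. An unadjusted p under 0.05 was reached by 5 of the 6 genes, against 14.1% of all genes. The median difference was 0.84 over the 6 genes and 0.0016 over all genes.

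The size of the cortex difference and its test ranked the genes differently. *Egr2* and *Egr1* had larger differences than *Egr3*, but their Con libraries spread 9.92-fold and 1.94-fold from lowest to highest, against 1.11-fold for *Egr3*. Con 1 was the lowest Con library for 6 of the 6 genes. Without it, the difference of *Egr1* was 0.81 and passed (adjusted p = 0.0112 from limma), that of *Egr3* was 0.94 (adjusted p = 0.000780), that of *Egr4* was 0.43 (adjusted p = 0.0793) and that of *Nab2* was 0.39 (adjusted p = 0.0856). Across the 6 fits that left out 1 cortex library each, *Egr3* stayed between 0.94 and 1.02 and was called in each, although with no filter on low values its adjusted p was 0.0515, and *Egr2* ranged from 0.81 to 1.59 and was called in none. By the fold rule, 2 of the 6 genes were called without IR 2 and also without IR 3.

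In the hippocampus, where IR was compared with Con in the same way over 14043 genes, no gene of the 6 was called by limma, and 0 had an unadjusted p under 0.05, against 13.9% of all genes. By adjusted p 4 genes in all (0.0285%) were called, and by the fold rule 74 genes in both directions together (0.527%), again with none of the 6. The fold again came from log2(FPKM + 1), and the ratio of group means called more genes in all. The differences in log2(FPKM + 1) were 0.12 for *Egr1* (95% interval -0.38 to 0.61), 0.36 for *Egr2* (-0.15 to 0.87), 0.05 for *Egr3* (-0.17 to 0.26) and -0.03 for *Egr4* (-0.45 to 0.39). They were -0.08 for *Nab1* (-0.24 to 0.07) and -0.03 for *Nab2* (-0.20 to 0.13). For each of the 6 genes the interval ends below the value of its cortex difference, and the interval of *Egr2* is the widest. The cortex values have errors of their own, and their 95% intervals overlapped these for *Egr1*, *Egr2*, *Egr4* and *Nab1*. The adjusted p values from limma lay between 0.475 for *Egr2* and 0.947 for *Egr4*. All IR above all Con was seen for 0 of the 6 genes against 10.5% of all genes, and all IR below all Con for 1 gene, *Nab1*, against 9.36%. The median difference was 0.0066 over the 6 genes and -0.01 over all genes.

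**Figure D2:**
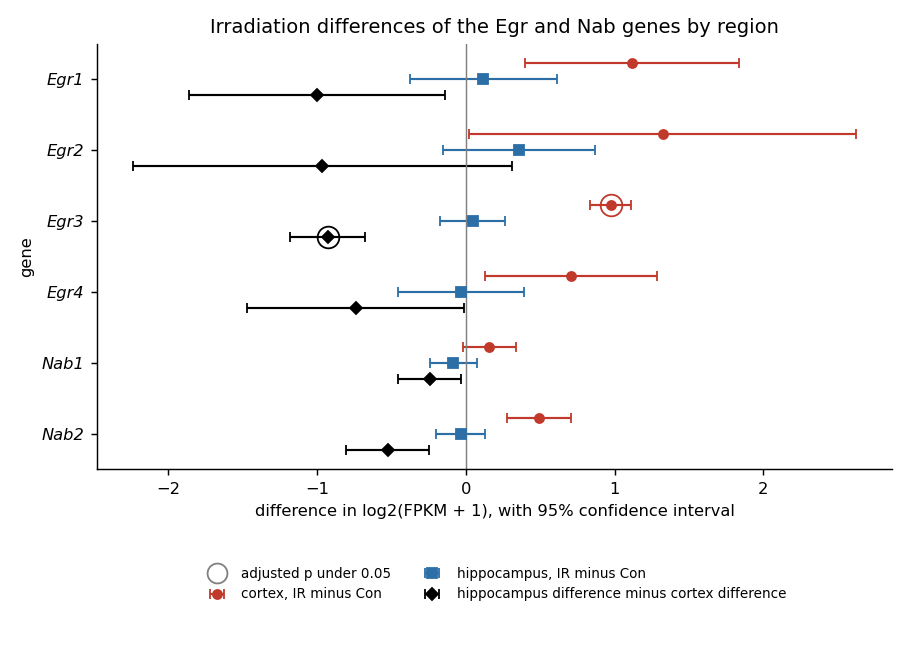
Differences in log2(FPKM + 1) between IR and Con (horizontal axis) with 95% confidence intervals for the 6 genes in the cortex, in the hippocampus, and as the hippocampus difference minus the cortex difference. Ringed points have an adjusted p under 0.05, which holds for *Egr3* in the cortex (0.97) and for its interaction (-0.93), and the 6 interaction values all lie below 0.

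Whether irradiation acted alike in both regions was asked with an interaction term fitted over the 12 libraries, written as the hippocampus difference minus the cortex difference. It was negative for 6 of the 6 genes, and it passed the adjusted threshold for *Egr3* at -0.93 (SE 0.12, adjusted p = 0.0292 from limma), where 12 of 14459 genes (0.083%) were called. *Egr3* had the smallest p of all these genes. The other values were -0.998 for *Egr1*, -0.96 for *Egr2*, -0.74 for *Egr4*, -0.53 for *Nab2* and -0.24 for *Nab1*, with adjusted p values from limma of 0.426, 0.570, 0.472, 0.201 and 0.432. An unadjusted p under 0.05 was reached by 5 of the 6 genes, against 10.4% of all genes, but for the 5 genes other than *Egr3* a difference between the regions was not shown after adjustment. Without cortex Con 1 the value was -0.45 for *Egr2* and -0.47 for *Egr4*. The *Egr3* call was lost without cortex Con 1, cortex Con 3, any of the 3 cortex IR libraries, hippocampus IR 1 or hippocampus IR 2, and over the 12 such fits its adjusted p from limma ranged from 0.00579 to 0.0937 while its value stayed between -0.98 and -0.83. It was also lost with no filter (adjusted p = 0.0760 from limma), without trend or robust prior (0.0502) and with the library number as a replicate block (0.141). Without hippocampus Con 3, *Nab2* was called as well (adjusted p = 0.0453), beside 487 genes in all.

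Con libraries of the 2 regions were compared over 14169 genes, of which 5147 (36.3%) differed. Among the 6 genes, *Egr1* was lower in the hippocampus, with a difference of -1.23 on the log2 scale (SE 0.28, adjusted p = 0.0142 from limma) and *Nab2* was higher by 0.32 (SE 0.10, adjusted p = 0.0311). The share of 2 in 6 is close to the background. *Egr3* was level between the regions, at -0.08 (95% interval -0.29 to 0.14), and *Egr2*, *Egr4* and *Nab1* stood at -0.87, -0.29 and 0.11 without passing. Both calls depended on single libraries. The *Egr1* call was lost without hippocampus Con 1 (adjusted p = 0.0598 from limma) and without hippocampus Con 3 (0.0567), and the *Nab2* call without cortex Con 1 (0.120), cortex Con 2 (0.0700), hippocampus Con 1 (0.0798) or hippocampus Con 2 (0.0775). Without cortex Con 1, *Egr2* (-1.38, adjusted p = 0.000355 from limma) and *Egr4* (-0.56, adjusted p = 0.0149) were called lower in the hippocampus. With the library number as a replicate block *Egr2* was called as well (adjusted p = 0.0462 from limma), which makes 3 of the 6 genes. Cortex and hippocampus tables carry different endings in their column names, so that region and a possible processing run cannot be told apart.

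The relative levels of the 6 genes are described by sums and ratios. Summed over the 4 Egr genes, the level was 135 ± 34.3 FPKM in cortex Con, 273 ± 27.1 in cortex IR, 80.6 ± 11.6 in hippocampus Con and 85.3 ± 17.1 in hippocampus IR (SD, n = 3). *Egr1* gave 58.4% of this sum in cortex Con and 61.5% in cortex IR, but 40.3% and 41.7% in the hippocampus, where *Egr3* gave 42.6% and 41.9%. The Egr sum per Nab sum was 5.93 ± 0.97 in cortex Con and 8.97 ± 0.15 in cortex IR (SD, n = 3), with single libraries at 4.84, 6.67 and 6.28 in Con and at 8.85, 8.93 and 9.14 in IR. In the hippocampus it was 2.96 ± 0.50 in Con and 3.21 ± 0.46 in IR, with overlap. The ratio of *Nab2* to *Nab1* was 2.67, 2.92 and 3.07 in cortex Con and 3.59, 3.63 and 3.67 in cortex IR, without overlap. In the hippocampus that ratio was 3.57, 3.42 and 3.08 in Con and 3.34, 3.47 and 3.68 in IR. These sums and ratios restate the 6 genes and were not tested.

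**Figure D3:**
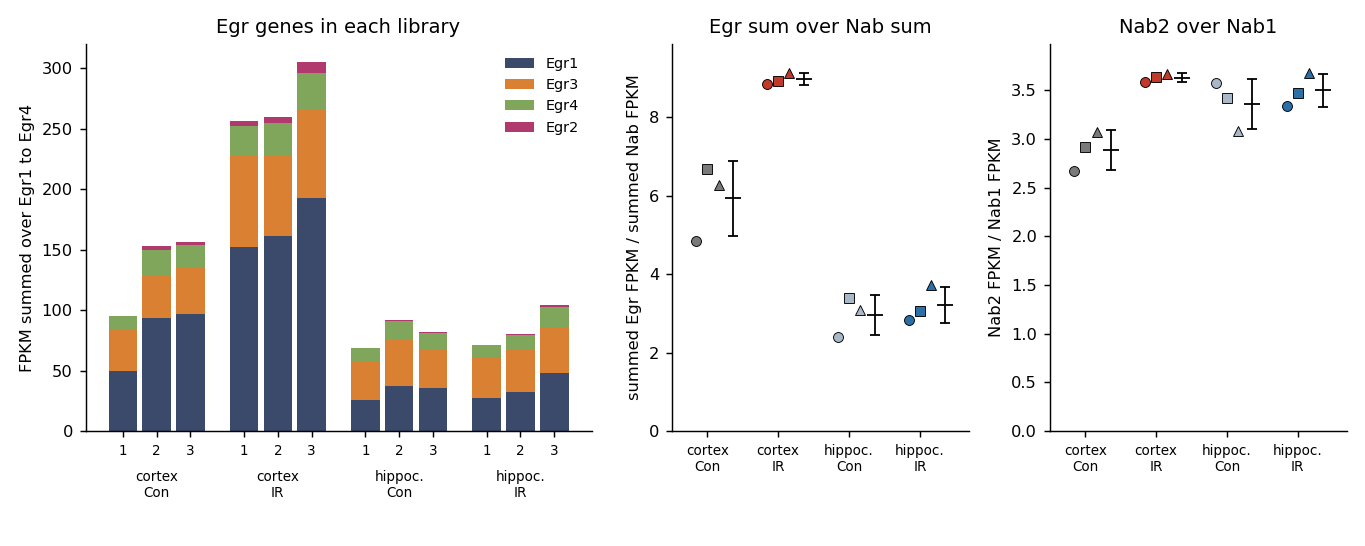
Left, FPKM of the Egr genes stacked in each of 12 libraries; middle and right, the summed Egr FPKM divided by the summed Nab FPKM and the *Nab2* FPKM divided by the *Nab1* FPKM, with group mean and SD (n = 3). The cortex IR bars reach 257 to 305 FPKM, the other bars at most 157 FPKM, and *Egr1* and *Egr3* have about equal parts in the hippocampus bars.

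In 3 of the 4 groups, single libraries stood at 1 end for most of the family. Cortex Con 1 and hippocampus IR 1 were the lowest of their groups for 6 of the 6 genes, hippocampus IR 3 was the highest of its group for 6 of 6, and cortex IR 3 was the highest for 5 of 6. In hippocampus Con no library was at the same end for more than 3 of the 6 genes. In the hippocampus, IR 3 had *Egr1* at 48.1 FPKM and *Egr2* at 1.58 FPKM, 1.74 and 3.18 times the lowest IR library. Without IR 3 the hippocampus difference of *Egr1* was -0.10, and without Con 1 it was -0.05, so that its sign there rests on single libraries. The gene *Egr2* did not pass the filter in the hippocampus without Con 2, IR 2 or IR 3. Its difference ranged from 0.24 to 0.51 over the other fits with 1 library left out in which it was tested and was 0.82 with a pseudocount of 0.1.

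Genes around the family were taken from 5 lists. The first list held 12 SRF, TCF and CREB family genes, whose products act on promoter sites of immediate-early genes. By adjusted p, 1 of them was higher and 0 were lower in cortex IR, where 0.562% of all genes were called higher. The 1 gene was *Crem*, a CREB relative that is itself inducible by cAMP. An unadjusted p under 0.05 was reached by 2 cortex and 2 hippocampus tests of this list. *Crem* went from 5.64 ± 0.50 to 8.30 ± 0.46 FPKM in the cortex (SD, n = 3), a difference of 0.49 in log2(FPKM + 1) (adjusted p = 0.0321 from limma), against 4.66 ± 0.39 FPKM in Con and 4.50 ± 0.17 FPKM in IR of the hippocampus. Of the 16 genes of the RAS-RAF-MEK-ERK cascade, 0 passed by limma in either region, while an unadjusted p under 0.05 was reached by 3 cortex and 4 hippocampus tests, against 14.1% and 13.9% of all genes. The 4 largest cortex differences were -0.29 for *Rps6ka4*, 0.25 for *Rps6ka3* and 0.19 for *Rps6ka2*, kinases downstream of ERK, and -0.18 for *Mapk3*, which encodes ERK1. Of the 13 NuRD subunit genes, through which Nab proteins act, 0 passed, and 1 cortex test and 2 hippocampus tests had an unadjusted p under 0.05, with *Hdac1* at -0.24 (adjusted p = 0.103 from limma), *Chd3* at -0.09, *Gatad2a* at 0.07 and *Mbd2* at 0.07 in the cortex. The list medians in the cortex were 0.05, -0.02 and -0.01 for these 3 lists, near the median of all genes.

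Of 15 genes that have been described as Egr targets, 0 passed by limma in either region, and 2 cortex tests and 1 hippocampus test had an unadjusted p under 0.05, against 14.1% and 13.9% of all genes. *Arc*, a synaptic plasticity gene that is also an immediate-early gene, had the largest cortex difference of the list at 1.66 (SE 0.50, adjusted p = 0.286 from limma), followed by *Sgk1* at 0.29, *Gabra4* at -0.14 and *Tgfb1* at -0.11. The list medians were -0.03 (cortex) and -0.02 (hippocampus), and 1 of the 15 genes had all IR above all Con in the cortex, while 4 had all IR below all Con in the hippocampus, against 11.2% and 9.36% of all genes. In the cortex, the targets other than *Arc* lay between -0.14 and 0.29 in log2(FPKM + 1), and the 4 Egr genes between 0.71 and 1.32. Whether Egr proteins acted on these genes was not tested.

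Several other immediate-early genes were higher in cortex IR too. Of 18 such genes in the list, 17 were tested and *Maff* did not pass the filter. In the cortex 5 were called higher and 0 lower, *Homer1* (0.84), *Dusp6* (0.81), *Fosb* (0.77), *Klf4* (0.63) and *Ier5* (0.59), with adjusted p values from limma of 0.00400, 0.0152, 0.0303, 0.0353 and 0.00497. *Homer1* encodes a scaffold of the synapse with a short activity-induced form, *Dusp6* a phosphatase that turns ERK off, *Fosb* a subunit of AP-1, *Klf4* a zinc finger factor and *Ier5* a small early-response protein. The 17 genes had a median of 0.63 in the cortex against 0.13 in the hippocampus, where 0 were called. An unadjusted p under 0.05 was reached by 9 of the 17 in the cortex, 2 in the hippocampus and 7 in the interaction, against 14.1%, 13.9% and 10.4% of all genes. All IR lay above all Con for 12 of 17 genes in the cortex, against 3 of 17 for the hippocampus, where the shares over all genes were 11.2% and 10.5%. Over all genes, 0.562% were called higher in cortex IR and 0.083% were called in the interaction. The interaction was called for 2 of the 17, *Homer1* at -0.81 (adjusted p = 0.0294 from limma) and *Ier5* at -0.73 (adjusted p = 0.0359), both with the sign it had for *Egr3*. No gene at all was called in the interaction without trend or robust prior, with the library number as a replicate block, or without cortex Con 1, any cortex IR library, hippocampus IR 1 or hippocampus IR 2, so both calls were lost there too. They were also lost with equal FPKM totals and without cortex Con 3 or hippocampus Con 2.

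**Figure D4:**
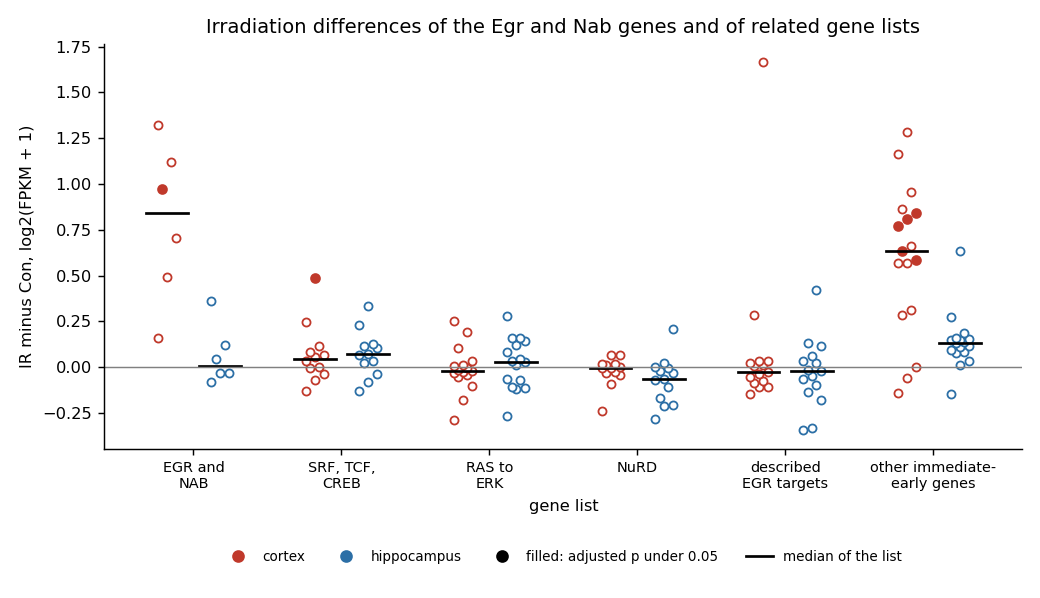
IR minus Con in log2(FPKM + 1) (vertical axis) for each tested gene of 6 lists by region, with filled points at an adjusted p under 0.05 and a bar at the list median. The Egr and Nab genes and the other immediate-early genes have cortex medians of 0.84 and 0.63, and the other 4 lists have medians near 0, with *Arc* at 1.66 among the described targets.

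Genes with the pattern most like each Egr gene and *Nab2* over the 12 libraries were found by the root mean square difference of centred log2(FPKM + 1) profiles, among 14458 genes. For *Egr1* they were *Nr4a1* (0.19), *Trib1* (0.25), *Dusp1* (0.29), *Egr2* (0.29) and *Fos* (0.32), against a median of 1.01 over all genes. For *Egr2* they were *Nr4a1* (0.24), *Arc* (0.25), *Egr1* (0.29), *Trib1* (0.32) and *Fos* (0.40). The genes nearest to *Egr3* were *Midn* (0.16), *Homer1* (0.17), *Dusp6* (0.17), *Crem* (0.19) and *Bcor* (0.21), with *Egr4* at rank 36 and *Egr1* at rank 13033. The genes nearest to *Egr4* were *Junb* (0.13), *Per1* (0.17), *Midn* (0.17), *Cyr61* (0.22) and *Dusp6* (0.22), with *Egr3* at rank 9. *Nab2* was nearest to *Rundc1* (0.09), *F3* (0.11), *Srsf7* (0.12), *Ptpn1* (0.12) and *Ppp1r3c* (0.12), with *Nab1* at rank 24. The measure depends on the size of a profile as well as its shape, the 12 points share libraries and normalization, and no test was made on it.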

How the data were processed

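RNA-seq libraries from the cortex and the hippocampus of Con and IR mice (n = 3 per group and region) were used. The authors made paired-end reads of 100 bases, trimmed them with FASTX_Trimmer and BBMap, aligned them with TopHat, estimated FPKM with Cufflinks and applied a geometric normalization in edgeR, and they deposited 1 table of FPKM per library, listed by gene symbol. The submitters' processing notes name the build mm10, and the annotation and the use of strand are not given in the sources used here. The methods name poly(A) selection and an RNeasy kit, whereas the labels name Trizol and total RNA. No reads or counts were analysed here. The depth in reads and the counting error are therefore unknown, and the number of libraries limits the precision.

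Libraries were assigned to groups from their labels. Values were taken as log2(FPKM + 1), genes were kept that reached 0.5 FPKM in 3 or more libraries of a region (of either region for the interaction), and limma 3.58.1 in R 4.3.3 was fitted with variance trend and robust prior, with Benjamini-Hochberg adjustment over all genes tested. The region fits used 6 libraries and the interaction 12. The fit was tested on simulated data. The 6 genes and the lists around them were chosen with earlier results of these data known. All 6 genes were named, and of each list the genes with an adjusted p under 0.05 in a region or, with none, the 4 with the largest cortex difference, and the 5 genes nearest in profile to each Egr gene and *Nab2*. Nothing says which libraries came from separate mice, so p values measure the spread between these libraries, which may be technical. Gene positions came from GENCODE M21 on GRCm38, and promoters from a table of RefSeq starts that held 4 of the 6 genes and lacked *Egr1* and *Egr3*. Alternatives were another pseudocount, other filters, quantile normalization, equal FPKM totals, limma without trend or robust prior, the library number as a block, 1 fit over 12 libraries, the fold as a ratio of group means, and leaving out each library. Python 3.11.15 and matplotlib 3.10.9 gave the figures.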

Additional observations from a re-analysis of the deposited data

Results flagged for a closer look

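The interaction of irradiation and region for *Egr3* stood out because the 2 regions differed by their own test. IR minus Con in log2(FPKM + 1) was 0.97 for the cortex against 0.05 for the hippocampus, an interaction of -0.93 (adjusted p = 0.0292 from limma). The call was lost in 10 of 19 alternative settings, with the highest adjusted p from limma, 0.141, under the replicate block.

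*Nab1* stood out because every IR library lay above every Con library in the cortex and below every Con library in the hippocampus. Over all genes, 11.2% had all IR above all Con in the cortex and 9.36% had all IR below all Con in the hippocampus. Its interaction was -0.24, and this difference did not pass the adjusted threshold (adjusted p = 0.432 from limma). The hippocampus means were 6.29 ± 0.20 FPKM for Con against 5.88 ± 0.10 FPKM for IR (SD, n = 3).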

How the results depend on the processing

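In the cortex 102 genes were called by adjusted p. The count was 26 with no filter, which tests all 23183 symbols, 22 without trend or robust prior, and 16 to 78 when 1 library was left out. Of the 6 Egr and Nab genes, 1 was called, against 0 with no filter (*Egr3* at an adjusted p of 0.0515), 2 with at least 1 FPKM in every library and 2 in the fit over 12 libraries (*Nab2* added in both, at 0.0490 and 0.0292), and 1 to 2 when 1 library was left out. By the fold rule 68 genes were called, and 234 with a pseudocount of 0.1 and 263 with the ratio of group means. Of the 6 genes, 4 were called by that rule, 2 with no filter and 2 to 3 when 1 library was left out.

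In the hippocampus 4 genes were called by adjusted p, 12 with no filter, 2 with at least 1 FPKM in every library, 74 in the fit over 12 libraries, and 0 to 880 when 1 library was left out, the last without Con 3. By the fold rule 74 were called, 223 with a pseudocount of 0.1, 243 with the ratio of group means and 52 to 217 when 1 library was left out. With equal FPKM totals *Egr4* (0.0025) and *Nab2* (0.0034) changed sign there. When 1 library was left out, *Egr1* ranged from -0.10 to 0.29, *Egr3* from -0.00997 to 0.14, *Egr4* from -0.22 to 0.14 and *Nab2* from -0.082 to 0.0070.

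The interaction was called for 12 genes, 19 with at least 1 FPKM in every library, 2 with equal FPKM totals, 0 without trend or robust prior and 0 to 487 when 1 library was left out. Of the 6 genes 1 was called, 0 with no filter, 0 without trend or robust prior and 0 to 2 when 1 library was left out. Between regions in Con, 2 of the 6 genes were called, 0 with no filter, 1 with quantile normalization and 0 to 3 when 1 library was left out.

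The library number as a replicate block called 3 of the 6 genes in the cortex (*Egr1* at an adjusted p of 0.0479, *Nab2* at 0.0395 and *Egr3* at 0.00442), 1 gene of all in the hippocampus, 0 genes in the interaction (*Egr3* at 0.141), and 3 of the 6 genes between regions in Con (*Egr2* added at 0.0462). Over all genes, that setting called 71 of 14065 in the cortex, and 2601 higher and 2366 lower of 14169 between regions in Con. Deviations of same-numbered libraries correlated between -0.38 and 0.18, and not every pair was above 0.1 in any pairing of groups, so the numbers were not taken to pair the samples. Over the 6 genes alone, same-numbered cortex and hippocampus libraries correlated at 0.75, 0.67 and 0.29 in Con and at 0.71, 0.79 and 0.74 in IR, and differently numbered ones between -0.93 and 0.86, so a shared mouse is neither shown nor excluded. The cause of these changes was not tested. Under each alternative that gave a value, the 6 genes kept a positive cortex difference and a negative interaction. *Egr2* was not tested with at least 1 FPKM in every library.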
